A study of Macaca fascicularis with 2 samples.

Results

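The genes described here are the most abundant zinc finger genes of the fetal ovary of Macaca fascicularis, taken as every row of the deposited count table that is named ZNF with a number alone and has at least 5000 unique molecular identifiers (UMIs) over all cells. This rule kept 50 of the 368 ZNF rows with a number alone, in a table of 18446 rows. The genes were chosen by their total over all cells, so these totals are a description and support nothing. The 3 genes just above the limit were ZNF471 with 5374 UMIs, ZNF605 with 5209 and ZNF219 with 5009, and the 3 rows just below it were ZNF528 with 4952, ZNF384 with 4796 and ZNF267 with 4718. All 50 had UMIs in the retained germ and somatic cells.

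Whole ovaries were taken from 1 untreated female fetus at embryonic day 84 (E84) and from 1 at E116, dissociated, and sequenced as 1 droplet single-cell library per fetus, with both ovaries of a fetus together. Barcodes end in 1 or in 2, and nothing ties an ending to a stage. The cells were therefore handled as a single pool, and the endings are given side by side with no stage attached. An ending may stand for a library, and so for 1 fetus, but the barcodes do not say so. Agreement between endings is therefore not a technical repeat. Of 20967 cells, 16292 had 200 to 3000 detected genes and were retained, 8716 with barcodes ending in 1 and 7576 ending in 2, and 27 barcode sequences occurred with both endings. The retained cells hold 35.8% of all UMIs and 32.2% of the UMIs of the chosen genes. By gene this share ran from 19.2% for ZNF728 to 39.9% for ZNF22. Totals of genes cover all cells, while levels are those of the retained cells unless stated otherwise. With 1 fetus per stage there is no replicate, so no test was made between groups, and the intervals below cover counting error only.

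Zinc finger genes of the C2H2 type form the largest family of DNA-binding proteins in primates. Many carry a KRAB domain, which recruits the corepressor TRIM28 and, through it, the histone methyltransferase SETDB1, and this pathway is known for silencing transposable elements and for keeping imprints in germ cells and early embryos. Other members have no KRAB domain and include BTB proteins, partners of histone methyltransferases, spindle proteins and RNA-binding proteins. By textbook knowledge of the named proteins, 20 of the 50 genes are of the KRAB class, 29 are of another build and ZNF655 was left unassigned, since its isoforms differ in this domain. Genes of the KRAB class often have near-identical copies, so reads of a copy could have been counted under its neighbour's name or dropped, and their levels are uncertain to that extent.

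Cells were clustered without the ZNF rows and named from marker lists. There were 4278 germ cell-like and 11601 somatic cells, and 413 cells with 84.5% mitochondrial UMIs stayed unnamed. Of the germ cell-like cells, 81 were mitotic-like (NANOG, TFAP2C and other early germ cell genes), 1282 RA-responsive-like (STRA8, REC8, ZGLP1), 1166 meiotic-like (SYCP1, SPO11, DMC1) and 600 oogenesis-like (FIGLA, NOBOX, GDF9), while 1149 in sub-clusters not led by germ cell markers stayed unnamed. The somatic cells were 5262 granulosa-like, 4059 stroma-like, 852 ovarian surface epithelium-like, 122 pericyte-like, 343 endothelial-like, 229 macrophage-like and 734 erythroid-like cells. All 12 germ cell markers were highest in the germ cell-like cells, where they summed to 2238 CPM, against 229 CPM in the next group. In their own group were highest 8 of 10 granulosa, 10 of 12 stroma and 7 of 8 surface epithelium markers. Among the steps, 10 of 11 oogenesis markers were. For the other named groups and steps all markers were. Clusters were named from these same markers, so these counts describe the groups and do not support the names. CPM are the UMIs of a gene per 1000000 UMIs of the group. The mitotic-like cells all had barcodes ending in 1, and the oogenesis-like cells were 130 ending in 1 and 470 ending in 2. Depth differed between the steps, with medians of 7031, 2019, 1855 and 1403 UMIs per cell from mitotic-like to oogenesis-like, and so did the share of mitochondrial UMIs, which was 8.93%, 17.6%, 18.6% and 27.6%. The part of depth and mitochondrial RNA in the differences between steps was not tested.

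The 50 genes held 475495 UMIs, 0.320% of all UMIs and 50.1% of those of the 368 ZNF rows. The 5 highest totals were those of ZNF292, a large nuclear protein linked to neurodevelopment (33857 UMIs), ZNF207, a kinetochore protein that stabilizes BUB3 (27446), ZNF644, a partner of the histone methyltransferases EHMT1 and EHMT2 (23708), ZNF428 (23318) and ZNF638, an RNA- and DNA-binding protein of the nuclear matrix (20892). These 5 are all outside the KRAB class. The total was over 20000 UMIs for 6 genes and under 10000 for 38.

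**Figure D1:**
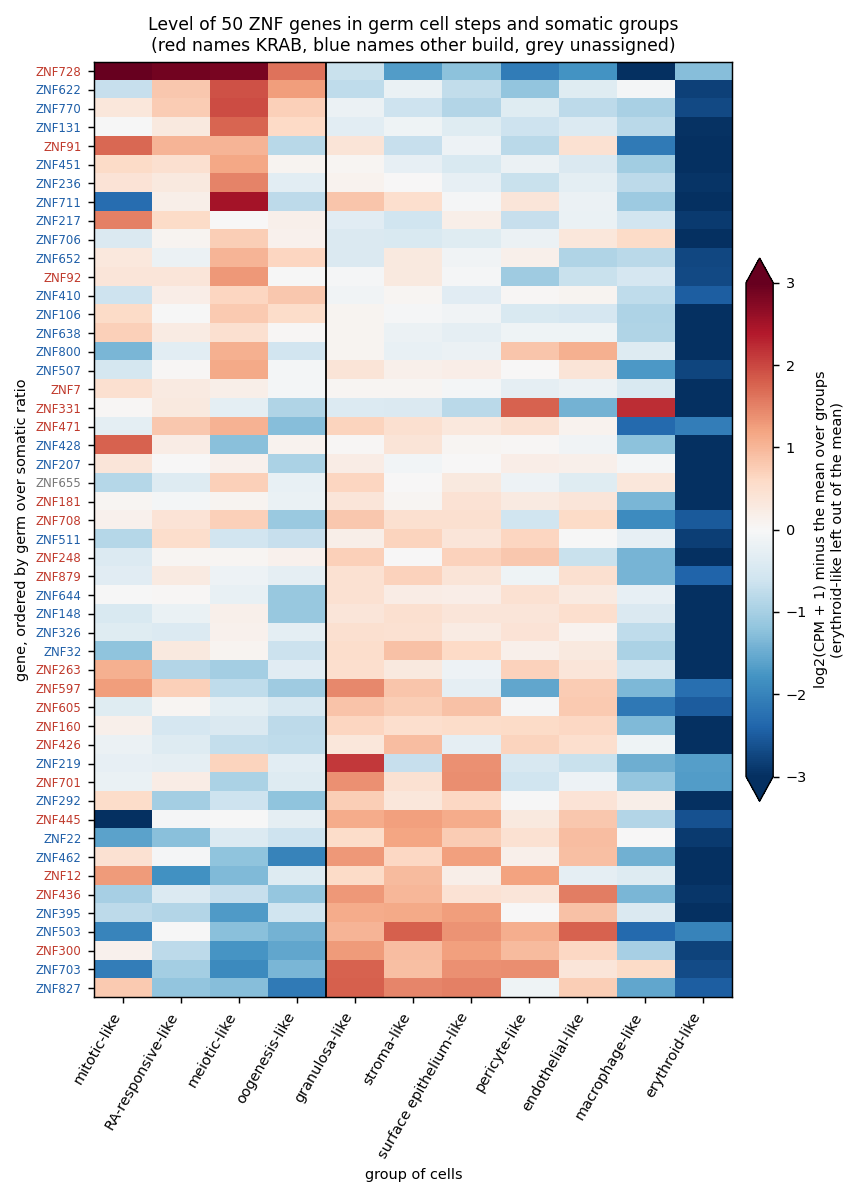
Level of the 50 genes (rows) in 4 germ cell steps and 7 somatic groups (columns), as log2(CPM + 1) minus the gene's mean over the groups without the erythroid-like one; red is higher, blue lower, and genes are ordered by their germ over somatic ratio. ZNF728 at the top is dark red in the first 3 steps and ZNF711 is dark red in the meiotic-like column. The erythroid-like column is the lowest for 46 genes, which was not counted over all rows.

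Taken as a family, the 50 genes had nearly the same summed level in germ cell-like and in somatic cells. Their UMIs summed to 2859 CPM (95% Poisson interval 2825 to 2893) in germ cell-like cells and to 2938 CPM (2922 to 2955) in somatic cells. With mitochondrial UMIs left out of the total, the order turned, with 3489 CPM in germ cell-like and 3336 CPM in somatic cells. Within barcodes ending in 1 the sums were 3147 and 3032 CPM, and within those ending in 2 they were 2338 and 2854 CPM.

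The sum moved more between the germ cell steps than between germ and somatic cells. The mitotic-like cells had 3314 CPM (3164 to 3469), the RA-responsive-like cells 2648 CPM (2594 to 2702), the meiotic-like cells 3451 CPM (3383 to 3519) and the oogenesis-like cells 2084 CPM (2011 to 2160). The mitotic-like and meiotic-like intervals overlap, and over both endings together the oogenesis-like sum was the lowest. Without mitochondrial UMIs the meiotic-like sum was 4239 CPM and the oogenesis-like one 2878 CPM. Within the endings, the meiotic-like sum was above the oogenesis-like one in both, at 3674 against 3110 CPM for ending 1 and 2702 against 1855 CPM for ending 2.

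Among the somatic groups the sum was 3396 CPM in granulosa-like, 3086 in stroma-like, 3007 in surface epithelium-like, 2874 in endothelial-like and 2834 in pericyte-like cells, then 1918 in macrophage-like and 269 in erythroid-like cells. The endothelial-like and pericyte-like intervals overlap. The erythroid-like cells had a median of 4063.5 UMIs and 299 detected genes, and their 9 erythroid markers summed to 478316 CPM.

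The 2 classes had different profiles over the steps. The KRAB genes summed to 962, 743, 716 and 457 CPM from the mitotic-like to the oogenesis-like step. In the retained cells their sum was thus highest at the first step, and the RA-responsive-like and meiotic-like intervals overlap. The genes of other build summed to 2326, 1869, 2657 and 1588 CPM over the same steps, with the maximum in meiotic-like cells. With no upper limit on detected genes, which made 253 mitotic-like cells, the KRAB sums were 899, 905, 843 and 536 CPM. The first step was then not the highest for the KRAB genes. The genes of other build had 2208, 2146, 2871 and 1846 CPM there, again with the maximum in meiotic-like cells.

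**Figure D2:**
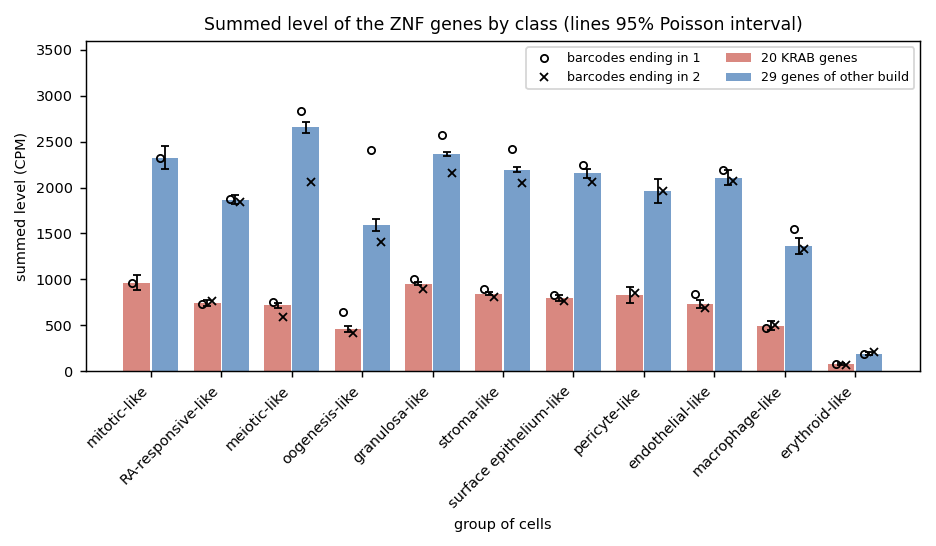
Summed level in CPM of the 20 KRAB genes (red bars) and the 29 genes of other build (blue bars) in 11 groups of cells, with 95% Poisson intervals; open circles (ending 1) and crosses (ending 2) are the values within each barcode ending, left out where an ending has under 20 cells. The blue bar is highest in meiotic-like cells (2657 CPM), the red bar highest in mitotic-like and granulosa-like cells (962 and 954 CPM), and values of ending 1 lie above those of ending 2 in most groups.

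In germ cell-like against somatic cells, 5 of the 50 genes were at least 2-fold higher and 12 at least 2-fold lower, each with an interval of the ratio clear of 1. Of all 4804 rows of the table with 5000 UMIs or more, 20.5% were higher and 18% lower by the same rule, so 10.0% of the ZNF genes stood above and 24.0% below. The median log2 ratio of the genes was −0.22 (medians of the interval bounds −0.38 and −0.06), and that of all rows was 0.17. The KRAB genes had a median of −0.58, with 2 of 20 higher and 5 lower, and the genes of other build a median of 0.04, with 3 of 29 higher and 7 lower. All 17 genes past 2-fold had the same sign within both barcode endings. The median depended on the cells kept: with cells over 10% mitochondrial UMIs removed, which left 1660 germ cell-like and 5762 somatic cells, it was 0.16, while that of all rows was 0.37. Without the erythroid-like cells it was −0.34, with 4 genes higher and 15 lower, and ZNF91, at 0.89, was the higher gene lost. No share of all rows is given for this setting.

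ZNF728, a gene of the KRAB class, had the largest ratio, and 99.6% of all rows had a smaller one. Its level was 93.4 CPM in germ cell-like cells and 5.54 CPM in somatic cells, a log2 ratio of 4.07 (3.87 to 4.29). Over the steps it was at 216 CPM (179 to 259) in mitotic-like cells, then at 105 (94.2 to 116), 101 (89.4 to 113) and 42.6 CPM (32.7 to 54.7), and the middle pair do not differ beyond their intervals. In the somatic groups it was 7.99 CPM in granulosa-like, 5.02 in surface epithelium-like, 4.88 in erythroid-like, 3.46 in stroma-like, 3.13 in endothelial-like (4 UMIs) and 2.30 CPM in pericyte-like cells (1 UMI), and 0 UMIs were seen in macrophage-like cells, with an upper bound of 5.04 CPM. Every germ cell step was thus above every somatic group. Within the granulosa-like cells its level was 51.0 CPM in 1 cluster of 1251 cells with a median of 693 UMIs, led by L1TD1 and TRIML2, in which the germ cell markers summed to 784 CPM and the granulosa markers to 751 CPM. Without that cluster, its level was 4.28 CPM in somatic cells and the log2 ratio 4.45. The part of free RNA in the somatic counts was not tested.

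ZNF622, a factor in the maturation of the large ribosomal subunit, was at 82.8 CPM in germ cell-like and 21.3 CPM in somatic cells (log2 ratio 1.96, interval 1.82 to 2.10). ZNF770 was at 88.8 and 24.3 CPM (1.87, 1.74 to 2.00). ZNF131, a BTB zinc finger protein, was at 146 and 57.8 CPM (1.33, 1.24 to 1.43). The last of the 5 was ZNF91, a KRAB gene known in primates for repressing SVA and LINE1 elements, at 59.7 and 29.6 CPM (1.01, 0.87 to 1.16), just past 2-fold, and its ratio within barcodes ending in 2 was 0.47. All 5 were higher in germ cells in both endings, but not at every step, since ZNF622 in mitotic-like cells (20.0 CPM) and ZNF91 in oogenesis-like cells (17.9 CPM) lay at or below the somatic level.

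The 4 largest ratios toward the somatic cells were those of ZNF827, ZNF703, ZNF300 and ZNF503. ZNF827, which is known for bringing a chromatin remodelling complex to telomeres, was at 14.3 CPM in germ cell-like and 84.6 CPM in somatic cells (log2 ratio −2.56, interval −2.82 to −2.32). Its mitotic-like level of 52.7 CPM stood apart from 12.8, 11.8 and 6.19 CPM at the later steps. ZNF703 and ZNF503, 2 related corepressors of the NET family, were at 12.3 against 65.0 CPM and at 24.9 against 95.3 CPM (−2.40 and −1.94). Both were higher in each of the granulosa-like, stroma-like, surface epithelium-like and pericyte-like groups than at any germ cell step. ZNF300, of the KRAB class, was at 13.8 against 56.9 CPM (−2.05). The other 8 lower genes were ZNF395, ZNF436, ZNF12, ZNF462, ZNF22, ZNF445, ZNF292 and ZNF701, with log2 ratios from −1.90 to −1.12.

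ZNF445, known with ZFP57 for keeping genomic imprints, was among these lower genes, at 24.4 CPM in germ cell-like and 57.7 CPM in somatic cells. The highest total of the family, ZNF292, was also lower in germ cell-like cells, at 90.7 against 210 CPM. With cells of over 3000 genes kept, 4 of the 12 lower genes were no longer past 2-fold, namely ZNF292 (−0.82), ZNF445 (−0.90), ZNF701 (−0.89) and ZNF12 (−0.95). ZNF207 and ZNF428 did not differ beyond counting error, with log2 ratios of −0.02 (−0.10 to 0.06) and 0.04 (−0.04 to 0.12).

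**Figure D3:**
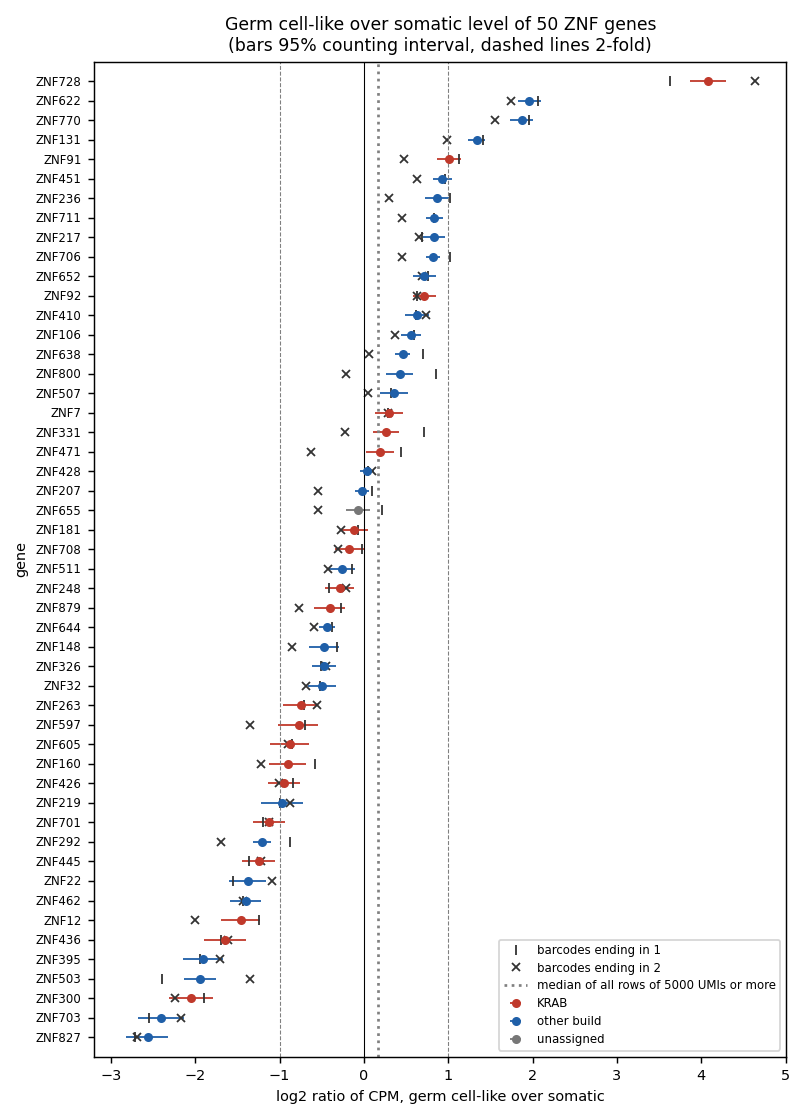
Log2 ratio of CPM in germ cell-like over somatic cells (x axis) for each of the 50 genes, with 95% counting intervals, by class; ticks and crosses give the ratio within each barcode ending, dashed lines 2-fold and the dotted line the median of all rows (0.17). ZNF728 stands alone at the upper end, 5 genes lie past 2-fold on the right and 12 on the left.

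From mitotic-like to RA-responsive-like cells, where retinoic acid response genes come up, 8 genes were at least 2-fold higher and 6 at least 2-fold lower, against 16.2% higher and 8.56% lower among all rows. The median log2 ratio was 0.03 (medians of the bounds −0.57 and 0.85). The mitotic-like group has 81 cells and all of one ending, so this comparison could not be repeated within the other. RA-responsive-like cells enter this comparison and the next, so the 2 share their values.

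ZNF12, a KRAB gene, had the largest drop in level, from 79.9 CPM (44 UMIs) to 8.53 CPM (30 UMIs), a log2 ratio of −3.23 (−3.95 to −2.53). Its level stayed low in meiotic-like cells (12.5 CPM) and was 24.8 CPM in oogenesis-like cells, and these steps were all below the somatic 48.3 CPM. ZNF827 (−2.04), ZNF263 (−1.99), which carries a SCAN and a KRAB domain, and ZNF292 (−1.58) were the next. ZNF428 was at 494 CPM (437 to 556) in mitotic-like and 169 CPM (155 to 183) in RA-responsive-like cells, and 494 CPM is the highest level of any of the 50 genes in any named group. ZNF728 had a log2 ratio of −1.05, the smallest difference of the 6. With cells of over 3000 genes kept, which made 253 mitotic-like cells, ZNF728 had −0.41 and ZNF292 −0.90, so that neither was past 2-fold, and ZNF12 had −2.23 and ZNF263 −1.08. ZNF217, a corepressor-associated oncogene which the study names, was at 172 and 89.0 CPM, a log2 ratio of −0.96 (−1.29 to −0.61) that did not reach 2-fold.

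In the other direction, ZNF445 had 1 UMI in mitotic-like cells (1.82 CPM, 0.046 to 10.1) and 97 UMIs in RA-responsive-like cells (27.6 CPM), a log2 ratio of 3.92 with an interval from 1.41 to 9.24. With cells of over 3000 genes kept, its levels were 7.57 and 26.7 CPM, a log2 ratio of 1.82. ZNF711, an X-linked gene related to ZFX whose product works with the demethylase PHF8, was at 9.08 CPM (5 UMIs) and 54.6 CPM (2.59, 1.34 to 4.23), and at 18.3 and 57.4 CPM (1.65) with those cells kept. ZNF503 (2.07) and ZNF32 (1.57) followed, with 5 and 8 UMIs in mitotic-like cells. ZNF622, ZNF511, ZNF471 and ZNF800 had log2 ratios of 1.54, 1.44, 1.14 and 1.102. With the cells of over 3000 genes, ZNF622 had 0.91 and ZNF471 0.74, and 6 of the 8 stayed past 2-fold.

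From RA-responsive-like to meiotic-like cells, 9 genes were at least 2-fold higher and 8 at least 2-fold lower, against 8.79% and 11.5% of all rows. The median log2 ratio was 0.10 for the 50 genes and −0.08 for all rows. The higher genes were 8 of the 29 genes of other build and ZNF655, and none of the 20 KRAB genes, of which 3 were lower. Of the 17 genes, 16 had the same sign within both endings, and ZNF622 did not (1.497 for ending 1 and −0.18 for ending 2).

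ZNF711 had the largest ratio and lay above 99.5% of all rows. It was at 54.6 CPM (47.1 to 62.9) in RA-responsive-like and 274 CPM (255 to 294) in meiotic-like cells, a log2 ratio of 2.33 (2.10 to 2.56), with 2.61 and 1.55 within the endings. ZNF131 was at 91.0 and 254 CPM (1.48, 1.29 to 1.68), and ZNF770 at 60.8 and 141 CPM (1.22, 0.97 to 1.46). ZNF800, known as a repressor in hormone-producing gut cells, was at 27.3 and 73.2 CPM (1.42), and ZNF652, a transcriptional repressor, at 38.4 and 89.9 CPM (1.23). These 5 genes were all higher in meiotic-like cells than at the other 3 steps. ZNF236, ZNF655, ZNF507 and ZNF622 had log2 ratios of 1.22, 1.14, 1.12 and 1.097. ZNF236 (0.86) and ZNF622 (0.93) were not past 2-fold with cells of over 3000 genes kept.

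The meiotic-like cells were themselves not uniform. ZNF711 was at 343 CPM in the sub-cluster of 709 cells led by RAD51AP2, at 129 CPM in the one of 249 cells led by histone genes, and at 171 CPM in the one of 208 cells led by SYCP1. ZNF131 had the same sub-cluster at its top, with 314, 150 and 143 CPM, and ZNF770 had 170, 85.4 and 93.3 CPM. All 3 genes were thus highest in the RAD51AP2-led sub-cluster. That sub-cluster holds 672 cells ending in 1 and 37 ending in 2, and the histone-led one 247 and 2, so the difference between these 2 stood within ending 1. The SYCP1-led sub-cluster holds 9 and 199, and its difference from the others and the barcode ending cannot be told apart.

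The 8 lower genes were led by ZNF597, of the KRAB class, from 25.9 to 8.68 CPM (−1.58), ZNF428 from 169 to 60.05 CPM (−1.49), ZNF503 from 38.1 to 15.6 CPM (−1.29) and ZNF462 from 38.4 to 16.3 CPM (−1.23). ZNF701, ZNF511, ZNF300 and ZNF703 had log2 ratios of −1.22, −1.13, −1.06 and −1.001. ZNF511 (−0.89), ZNF300 (−0.55) and ZNF703 (−0.19) were not past 2-fold with cells of over 3000 genes kept. For ZNF503, ZNF703 and ZNF300 this step lowered a level that was already under the somatic one.

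**Figure D4:**
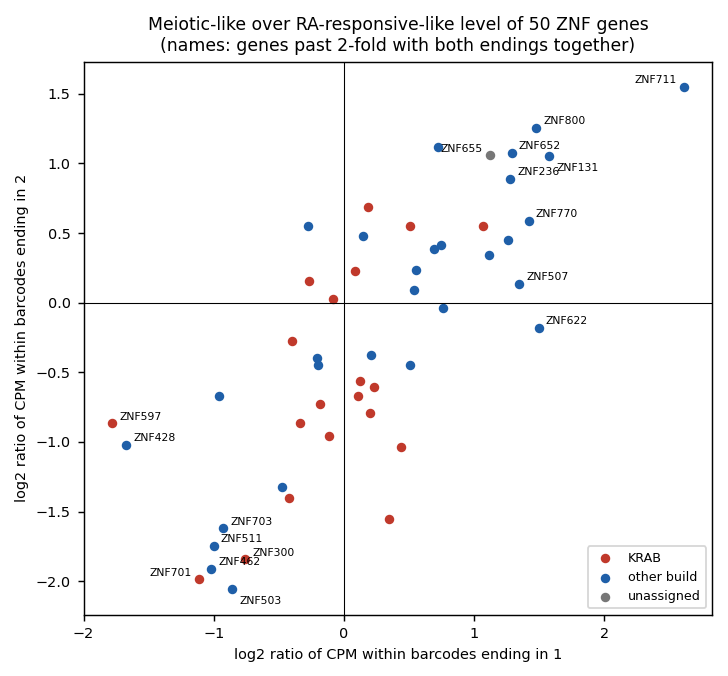
Log2 ratio of CPM in meiotic-like over RA-responsive-like cells within barcodes ending in 1 (x axis) and within those ending in 2 (y axis), 1 point per gene, coloured by class, with names for the 17 genes past 2-fold over all cells. ZNF711 lies at the upper right (2.61 and 1.55), and of the named genes ZNF622 alone has opposite signs.

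From meiotic-like to oogenesis-like cells, 2 genes were at least 2-fold higher and 15 at least 2-fold lower, against 11.2% and 15.1% of all rows. The median log2 ratio was −0.49 (medians of the bounds −1.01 and 0.03) for the 50 genes and −0.13 for all rows. Below 0 were 40 of the 50 ratios and 2665 of the 4804 rows. Within ending 1 the median was −0.34 (bounds −1.22 and 0.76) and within ending 2 −0.26 (−1.26 and 0.64), with 34 ratios below 0 in each. The medians of all rows there were 0.08 and 0.12. The lower genes were 10 of the 29 genes of other build and 5 of the 20 KRAB genes (ZNF471, ZNF708, ZNF91, ZNF92 and ZNF728). All 17 had the same sign within both endings. Within ending 1 alone 6 genes were lower by 2-fold (6.23% of all rows), and within ending 2 alone 11 (11.1% of all rows). With 30 principal components, which left 116 oogenesis-like cells, 5 were lower (8.53% of all rows).

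ZNF711 was again the gene with the largest difference, from 274 CPM in meiotic-like to 27.5 CPM (19.7 to 37.5) in oogenesis-like cells, a log2 ratio of −3.32 (−3.81 to −2.86). Its level therefore passed from 9.08 through 54.6 and 274 to 27.5 CPM over the 4 steps. In oogenesis-like cells it was 82.8 CPM for ending 1 and 15.1 CPM for ending 2, and 81.9 CPM in the sub-cluster led by FIGLA against 7.52 CPM in the one with ASTL, an oocyte protease gene, among its leading genes. ZNF471 followed, from 52.1 to 9.63 CPM (−2.44), then ZNF708 from 47.2 to 12.4 CPM (−1.93) and ZNF91 from 67.3 to 17.9 CPM (−1.91), all of the KRAB class. ZNF131 and ZNF770 were lower by −1.17 and −1.26, and ZNF728 by −1.24. ZNF207 was at 196 and 91.5 CPM (−1.098). With cells of over 3000 genes kept, ZNF207 (−0.83), ZNF451 (−0.62), ZNF148 (−0.98) and ZNF507 (−0.90) were not past 2-fold. In their place 4 other genes were, and the count stayed at 15 (19.0% of all rows).

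The 2 higher genes were ZNF428, from 60.05 CPM (51.4 to 69.7) to 156 CPM (136 to 178), and ZNF395, a factor known from the hypoxia response, from 9.02 to 20.6 CPM (1.19, 0.39 to 2.01). With cells of over 3000 genes kept, no gene was higher by 2-fold (11.4% of all rows), and ZNF428 had a log2 ratio of 0.77 in place of 1.38. Over the 4 steps ZNF428 was thus at 494, 169, 60.05 and 156 CPM, lowest in the meiotic-like cells, where ZNF711 was highest.

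**Figure D5:**
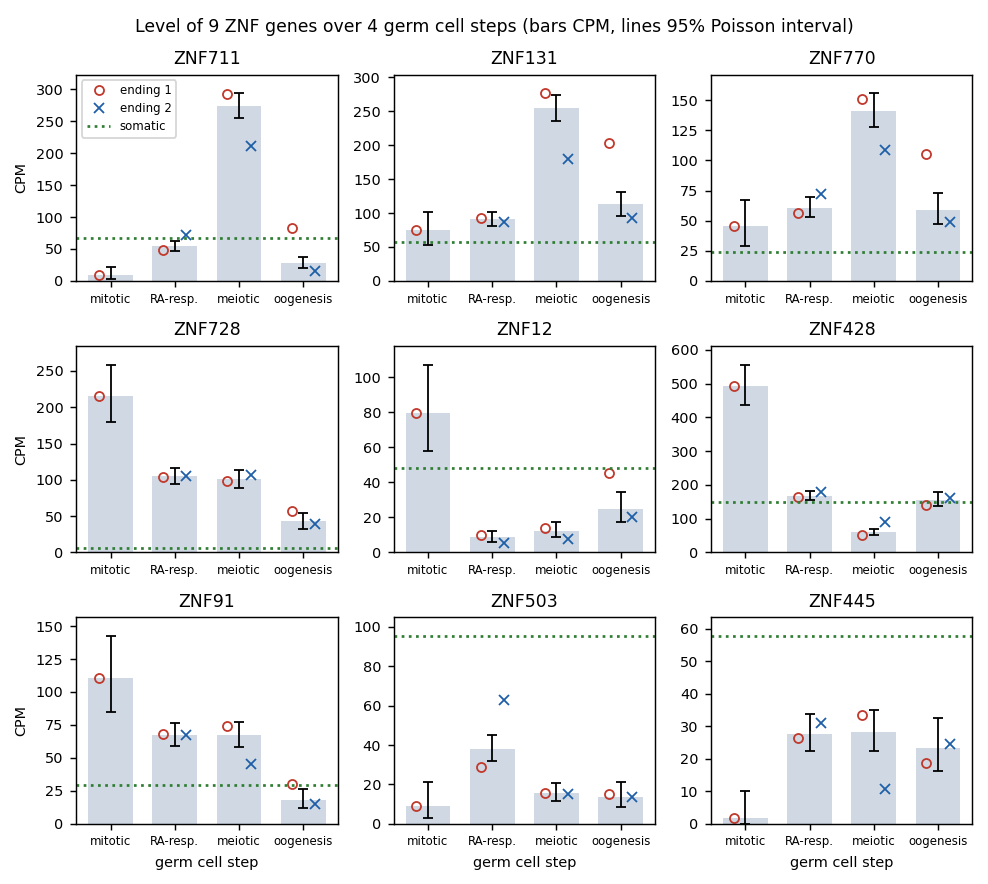
Level in CPM (bars) of 9 of the genes over the 4 germ cell steps, from mitotic-like on the left to oogenesis-like on the right, with 95% Poisson intervals; red circles and blue crosses are the values within barcode endings 1 and 2, and the green dotted line is the level in all somatic cells. ZNF711, ZNF131 and ZNF770 peak in meiotic-like cells, ZNF728, ZNF12, ZNF428 and ZNF91 in mitotic-like cells, and ZNF445 has 1 UMI in mitotic-like cells.

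Counted over the 4 steps, the highest level was in meiotic-like cells for 21 of the 50 genes (42%, against 30.2% of all rows), in mitotic-like cells for 16 (32% against 25.9%), in RA-responsive-like cells for 10 (20.0% against 23.4%) and in oogenesis-like cells for 3 (6% against 20.5%). The maximum was clear of the next step by its interval for 12 of the 21 meiotic-like, 9 of the 16 mitotic-like, 3 of the 10 RA-responsive-like and 0 of the 3 oogenesis-like genes. Of the 21 genes with the maximum in meiotic-like cells, 15 were of other build and 5 of the KRAB class, and of the 16 with the maximum in mitotic-like cells 9 were of the KRAB class. Oogenesis-like cells had the lowest level for 23 genes and mitotic-like cells for 17. The lowest step was not counted over all rows, so these counts cannot be set against a background.

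The genes also differed between somatic groups. Over all 11 named groups the maximum was in meiotic-like cells for 14 genes (28.0%, against 21.5% of all rows), in granulosa-like cells for 11 (22.0% against 9.18%) and in mitotic-like cells for 9 (18% against 11.1%). It was in stroma-like cells for 7 (14.0% against 7.33%) and in surface epithelium-like cells for 4 (8% against 5.81%). The maximum was clear of the next group for 9 of the 14 meiotic-like, 4 of the 9 mitotic-like, 3 of the 11 granulosa-like, 1 of the 7 stroma-like and 0 of the 4 surface epithelium-like genes. In granulosa-like cells, which surround the germ cells and become the follicle wall, ZNF219, known as a partner of SOX9 in cartilage, was at 60.003 CPM (56.5 to 63.7), against 35.4 CPM (29.5 to 42.1) in surface epithelium-like and 7.72 CPM in stroma-like cells. The granulosa-like and surface epithelium-like intervals do not overlap, and every germ cell step was at 21.5 CPM or below. ZNF703 was also highest there, at 92.3 CPM, with 71.4 CPM in pericyte-like cells as the next (log2 ratio 0.37, −0.14 to 0.93), so that pair do not differ beyond counting error.

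ZNF331, a KRAB gene that is imprinted in humans, was highest in macrophage-like and pericyte-like cells. It was at 234 CPM (200 to 271) in macrophage-like and 173 CPM (136 to 216) in pericyte-like cells, and between 18.01 and 37.5 CPM in granulosa-like, stroma-like, surface epithelium-like and endothelial-like cells. Macrophage-like over pericyte-like gave a log2 ratio of 0.44 (0.04 to 0.85). Of the 11 named groups these 2 alone exceeded 61.4 CPM, its level in RA-responsive-like cells. ZNF706, a small protein, was second among macrophage-like cells at 227 CPM, beside 252 CPM in meiotic-like cells.

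Elsewhere the leading genes stood close to their next group. In stroma-like cells ZNF32 was at 65.3 CPM (next 53.5 in surface epithelium-like cells) and ZNF426 at 75.3 CPM (next 62.2 in pericyte-like cells). ZNF395 and ZNF181 led in surface epithelium-like, ZNF436 and ZNF148 in endothelial-like, and ZNF248 and ZNF644 in pericyte-like cells. Those 6 and ZNF426 had intervals of the ratio to the next group that hold 1. In erythroid-like cells no gene was over 17.1 CPM, the level of ZNF207.

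The partners of KRAB proteins were read from a list of 24 gene names, 21 of them in the table. TASOR and its former name FAM208A are both on the list and are the same gene. ZFP57, on the list but itself a KRAB zinc finger gene, had no UMI in germ cell-like cells and 0.117 CPM in somatic cells. It is given no ratio. For the other 20 the median log2 ratio of germ cell-like over somatic cells was 0.63, 18 were above 0, 6 were at least 2-fold higher and 0 lower. The median of all rows was 0.17 and that of the KRAB genes −0.58. Of the 16 with 5000 UMIs or more, 3 were higher (18.8%, beside 20.5% of all rows). TRIM28 was at 237 against 138 CPM (0.78) and SETDB1 at 29.3 against 19.4 CPM (0.59), neither past 2-fold. The 6 were UHRF1 (1.93) and DNMT1 (1.39), which maintain DNA methylation, SUV39H1 (1.69), a methyltransferase of histone H3 lysine 9, MORC2 (1.62) and MORC3 (1.17), ATPases that compact chromatin, and CBX3 (1.21), a heterochromatin protein.

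Over the steps, 4 of the 20 were higher and 1 lower in RA-responsive-like than in mitotic-like cells (16.2% and 8.56% of all rows), with DNMT1 from 40.0 to 202 CPM and MORC2 from 43.6 to 16.8 CPM. In meiotic-like over RA-responsive-like cells MORC2 (2.31) and TASOR (1.19), a subunit of the HUSH silencing complex, were higher and UHRF1 (−2.21) was lower, beside 8.79% and 11.5% of all rows. In oogenesis-like over meiotic-like cells 8 of the 20 were lower and 2 higher, beside 15.1% and 11.2% of all rows, and of the 16 genes with 5000 UMIs or more 7 were lower and 1 higher. Within ending 1 alone 5 of the 20 were lower and 0 higher (6.23% and 8.85% of all rows). Within ending 2 alone 9 were lower and 2 higher (11.1% and 15.1% of all rows). Among the lower ones CBX1 had the largest ratio, from 305 to 72.9 CPM, and the higher ones were UHRF1 from 7.64 to 70.1 CPM and EHMT2 from 39.6 to 121 CPM. TRIM28 stayed at 212 and 215 CPM in those steps.

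A RefSeq gene table of another assembly of the species (T2T-MFA8v1.1) held 45 of the 50 genes. A ZNF gene was the direct neighbour of 11 of the 45 (24.4%), of 3 of the 29 genes of other build (10.3%) and of 142 of 270 matched ZNF rows under the limit (52.6%). The share for the KRAB class is void, because 15 of its 20 genes (75.0%) were matched. Every gene of the 50 that was not matched, ZNF728 among them, is of the KRAB class. The 24.4% therefore leans toward the genes of other build.

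Within a group, the barcode endings differed in level. In oogenesis-like cells 1 gene was at least 2-fold higher and 14 lower in ending 2 than in ending 1 (5.18% and 20.4% of all rows), and the median log2 ratio was −0.70, against −0.41 for all rows. In meiotic-like cells 1 was higher and 6 were lower (2.58% and 14.2% of all rows), with medians of −0.49 and −0.40. The medians were 0.07 and −0.16 in RA-responsive-like, −0.21 and −0.24 in granulosa-like, and −0.20 and −0.04 in stroma-like cells. The endings and the 2 fetuses cannot be told apart.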

How the data were processed

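RNA of single cells was captured with the 10x Genomics 3′ version 3 kit. The authors deposited unnormalized counts of UMIs, 1 column per cell, which Cell Ranger 3.0.2 produced against the build Macaca_fascicularis_5.0. No mitochondrial filter, doublet removal or correction for free RNA had been applied to them as far as is stated. The table holds 148824177 UMIs, with a median of 3130 per cell for barcodes ending in 1 and 4555.5 for those ending in 2.

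The members and all lists were chosen with earlier results of these data known. Cells with 200 to 3000 genes were normalized and clustered with Seurat 5.3.0 in R 4.3.3 on 2000 variable genes without ZNF rows (18 principal components, 20 neighbours, resolution 0.6), which gave 19 clusters. Resolution 0.9 then split the germ cell-like cells into 13 sub-clusters. A name needed 3 markers, each 1.5 times higher than in the remaining cells after 10 CPM were added, and found in 5% of the cluster. Scrublet (scanpy 1.11.5) called 0 doublets in each ending and so removed none.

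UMIs were summed per group and scaled to 1000000 UMIs (CPM), with exact 95% Poisson intervals. Ratios have conditional binomial intervals, and a count of 0 stands at 3 counts. A gene counts as higher or lower where its ratio was at least 2-fold and the interval clear of 1. The background is all 4804 rows with 5000 UMIs or more. These counts come from a 3′ assay, and levels were compared within genes. On simulated counts of the 4804 rows in germ over somatic, 95.0% of intervals held the true ratio and 100.0% of 200 changed genes were called. In oogenesis over meiotic 98.0% were. The simulated counts held counting error alone, and the planted changes were all past 2-fold. Coverage near 95% was therefore set in advance. The simulation checks the calculation and says nothing of the spread between cells, endings or fetuses.

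Genes were named by rule: the 5 highest totals, the 3 nearest each side of the limit, up to 4 higher and 4 lower in each comparison, up to 2 per somatic group, the corepressors called, and genes the study names. ZNF625, which the study names, is under the limit. Other genes named in counts were chosen after their values were seen. The alternatives were other resolutions and components, ZNF rows kept for clustering, cell filters by mitochondrial UMIs, doublet score or gene number, other scalings and each barcode ending alone. Pooled cells gave no test. Python 3.11.15, numpy 2.4.6, scipy 1.17.1, pandas 2.3.3 and matplotlib 3.10.9 were used. Proteins and promoters were not analysed here.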

Additional observations from a re-analysis of the deposited data

How the results depend on the processing

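No paired analysis was possible because each stage has 1 library and the cells are not mapped to stages. Depth limits the small groups, such as the mitotic-like cells with 550725 UMIs and the pericyte-like cells with 434339. Of 195 values of the comparisons under the alternatives, 174 kept their direction and size, 20 moved and 1 reversed. With cells over 10% mitochondrial UMIs removed, the germ over somatic median was 0.16 in place of −0.22, with 8 genes higher (28.5% of all rows). In that setting meiotic over RA-responsive had 14 higher and 3 lower (12.9% and 15.9% of all rows). Relative to the median of all rows, the germ over somatic median was −0.21 there and −0.39 as reported. The 8 genes lower in meiotic over RA-responsive were 5 at germ resolution 0.6, with 30 components, with no upper limit on genes, with 5 CPM added or in ending 1 alone, and 4 when single-cell CPM were averaged. The share of all rows lower was 10.5% at germ resolution 0.6, 15.8% with 30 components, 9.78% with no upper limit and 11.7% in ending 1. With 30 components, germ over somatic had 8 higher (22.4% of all rows) and oogenesis over meiotic 5 lower (8.53% of all rows). The 2 genes higher in oogenesis over meiotic were 0 with no upper limit on genes, 5 with single-cell CPM averaged, 1 with 5 CPM added and 4 in ending 1 alone, where 6 were lower in place of 15. Of all rows, 11.4% were higher with no upper limit, and in ending 1 alone 8.85% were higher and 6.23% lower. In ending 2 alone, the germ over somatic median was −0.50 with 3 higher, and 3 corepressors were higher in place of 6. Of all rows 15.9% were higher there. With single-cell CPM averaged, 1 corepressor was lower. The cause of these was not tested. Of 452 ratios of single genes, 366 stayed within the main interval, 86 moved outside it and 0 were counted as reversed. ZNF622 in meiotic over RA-responsive did not keep its sign within both endings, as given above. With no upper limit on genes, 4 of the 12 genes lower in germ over somatic, 4 of the 14 past 2-fold in RA-responsive over mitotic, 5 of 17 in meiotic over RA-responsive and 6 of 17 in oogenesis over meiotic were no longer past 2-fold. Of the alternatives chosen after seeing the data, leaving out erythroid-like cells lost ZNF91 among the 5 higher genes and added 3 lower ones. Without the granulosa-like cluster led by L1TD1 the counts were 5 and 12 again, and without the RA-responsive-like sub-cluster led by cell division genes each count moved by at most 1.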
